A study of Trichoderma reesei with 4 samples.

Results

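Expression of 6 sugar transporter genes was examined as the filamentous ascomycete Trichoderma reesei passed from mycelial growth to asexual sporulation. The genes were chosen by identifier from the 9126 features of the deposited table, with earlier results of these data known. They were crt1 (TRIRE2_3405), stp1 (TRIRE2_69957), xlt1 (TRIRE2_104072) and the genes TRIRE2_79202, TRIRE2_77517 and TRIRE2_67752, which carry no symbol here. All cultures were of strain QM9414, an early cellulase-producing mutant, which the labels also describe as a low producer of cellulase. They were grown on a sheet of cellophane laid over malt extract agar. Mycelium was taken as the control at 0 h, and sporulating cultures were taken after 3, 6 and 9 h. Each of the 4 groups had 2 biological replicas. The later times had no control culture that was kept from sporulating, so sporulation and time in culture cannot be told apart. The labels name no cellulose, lactose or xylose in the medium.

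Sugar transporters of this kind belong to the major facilitator superfamily. They are membrane proteins that carry sugars into the cell, mostly together with protons. In T. reesei they bring in the sugars that secreted enzymes release from cellulose and hemicellulose. The product of crt1 is needed for cellulase induction by cellulose and lactose, stp1 encodes a transporter of glucose and cellobiose, and xlt1 encodes a D-xylose transporter. The other 3 genes are given only as sugar transporter genes.

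The levels given are log2 expression values after RMA, as mean ± SD of the 2 replicas of a time. With 2 replicas, their values follow from the mean and SD, and groups are said not to overlap when every replica of one time lay above every replica of the other. Over all features the median SD was between 0.0821 and 0.0992 at the 4 times, and the median level was between 11.53 and 11.56. Tests of single genes were limma's moderated tests, and the p-values of all 9126 features were adjusted together (Benjamini-Hochberg). A gene is said to have risen or fallen when its adjusted p was under 0.05 and its change at least 2-fold. The number of arrays limits the precision of every value, and the p-values measure only the spread between replicas. As a check of the labels, the hydrophobin genes hfb2 and hfb3 and the D-mannitol dehydrogenase gene lxr1, whose enzyme the submitters used to follow conidiation, were higher than in mycelium at all 3 sampled times.

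The comparison of 3 h with 0 h asks how the transporter genes stood at the first sampled time of sporulation. All 6 had a higher mean at 3 h than in mycelium, and 4 of them rose, stp1 31.2-fold, crt1 6.93-fold, TRIRE2_79202 3.94-fold and TRIRE2_67752 2.58-fold. None fell. Among all features 6.77% rose at 3 h by the same rule and 4.8% fell. The replicas of 3 h did not overlap with those of 0 h for any of the 6, all being higher, where this was so for 31.4% of all features. The median log2 change of the 6 genes was 1.67, and that of all features was -0.05. In whole cultures a larger share of cells that express a gene and more RNA per cell cannot be told apart.

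The cellobiose and glucose transporter gene stp1 had the largest change of the 6. It stood at 9.27 ± 0.15 in mycelium and reached 14.24 ± 0.0053 at 3 h, then 12.00 ± 0.138 at 6 h and 11.94 ± 0.184 at 9 h. The replicas were 9.17 and 9.38 in mycelium, and 14.23 and 14.24 at 3 h, so the times were far apart and the replicas of 3 h nearly equal. The log2 change at 3 h was 4.96 with a standard error of 0.13 and a 95% interval of 4.66 to 5.27 (adjusted p = 1.54e-07). Ordered by their change at 3 h, stp1 held place 22 from the top among the 9126 features. At 6 h stp1 was still 6.62-fold above mycelium (adjusted p = 3.42e-06) and at 9 h 6.33-fold (adjusted p = 3.05e-06).

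Expression of crt1, the transporter gene needed for cellulase induction, was high at every time. Mycelium had 12.74 ± 0.24, and the sporulating cultures had 15.54 ± 0.213 at 3 h, 14.41 ± 0.0789 at 6 h and 14.96 ± 0.0419 at 9 h. Even the lowest replica of any later time, 14.35 at 6 h, lay above the higher mycelium replica of 12.91. The log2 change at 3 h was 2.79 with a standard error of 0.147 (95% interval 2.45 to 3.13, adjusted p = 4.84e-06). It was 1.67 at 6 h (adjusted p = 8.49e-05) and 2.22 at 9 h (adjusted p = 1.36e-05), or 3.17-fold and 4.66-fold. The 3 h level was 0.398 log2 units below the highest value of the whole table, 15.93. Whether the rise is understated so near the top of the scale was not tested.

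The D-xylose transporter gene xlt1 was already at 14.86 ± 0.0749 in mycelium. It was at 15.2 ± 0.0787 at 3 h, 14.76 ± 0.0651 at 6 h and 14.43 ± 0.0562 at 9 h, a span of 0.77 log2 units over the experiment. Its change at 3 h, 0.33 on the log2 scale, had an adjusted p of 0.0265 and stayed far below 2-fold, with a 95% interval of 0.11 to 0.56. At 6 h the change was -0.1 (95% interval -0.33 to 0.13, adjusted p = 0.465) and at 9 h it was -0.44 (95% interval -0.66 to -0.21, adjusted p = 0.00792). The replicas of 3 h lay above and those of 9 h below both mycelium replicas. Against mycelium xlt1 passed the fold threshold at no time, and the 95% intervals of its measured changes lay within 2-fold in either direction. Its levels were 1.07 log2 units below the highest value of the table in mycelium and 0.738 below it at 3 h, and whether a rise is understated there was not tested.

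The sugar transporter gene TRIRE2_79202 was raised only at 3 h by the rule used here. From 10.07 ± 0.109 in mycelium it went to 12.05 ± 0.149 at 3 h, and it was back at 10.17 ± 0.0382 at 6 h and 10.42 ± 0.0659 at 9 h. The log2 change at 3 h was 1.98 with a standard error of 0.112 (95% interval 1.72 to 2.24, adjusted p = 6.87e-06), and the nearest replicas of 0 h and 3 h were 3.48-fold apart. At 6 h the replicas overlapped with those of mycelium, and the change was 0.1 (95% interval -0.16 to 0.36, adjusted p = 0.515). At 9 h they lay just above mycelium, with a change of 0.36 (adjusted p = 0.0306).

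Expression of TRIRE2_77517 was 10.56 ± 0.141 in mycelium. It was 11.37 ± 0.317 at 3 h, 10.5 ± 0.119 at 6 h and 10.08 ± 0.0377 at 9 h. Its SD at 3 h was larger than that of 89.6% of all features at that time. The log2 change at 3 h was 0.81 with a standard error of 0.157 (95% interval 0.44 to 1.17, adjusted p = 0.00426), which is 1.75-fold and short of the threshold, although the interval reaches past 2-fold. At 6 h the replicas overlapped with those of mycelium, and at 9 h both lay below it, with a change of -0.49 (95% interval -0.85 to -0.12, adjusted p = 0.0342).

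TRIRE2_67752 was measured at 10.97 ± 0.342 in mycelium, followed by 12.33 ± 0.0794 at 3 h, 11.88 ± 0.0799 at 6 h and 11.94 ± 0.15 at 9 h. Its mycelium replicas, 10.73 and 11.21, were farther apart than those of 93.6% of all features. All later replicas nevertheless lay above both. The log2 change was 1.36 at 3 h (95% interval 0.99 to 1.74, adjusted p = 3.71e-04), 0.91 at 6 h (95% interval 0.53 to 1.29, adjusted p = 0.00349) and 0.97 at 9 h (95% interval 0.60 to 1.35, adjusted p = 0.0019). The changes at 6 and 9 h were 1.88-fold and 1.97-fold, just short of the threshold, and those intervals do not separate them from 2-fold.

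**Figure D1:**
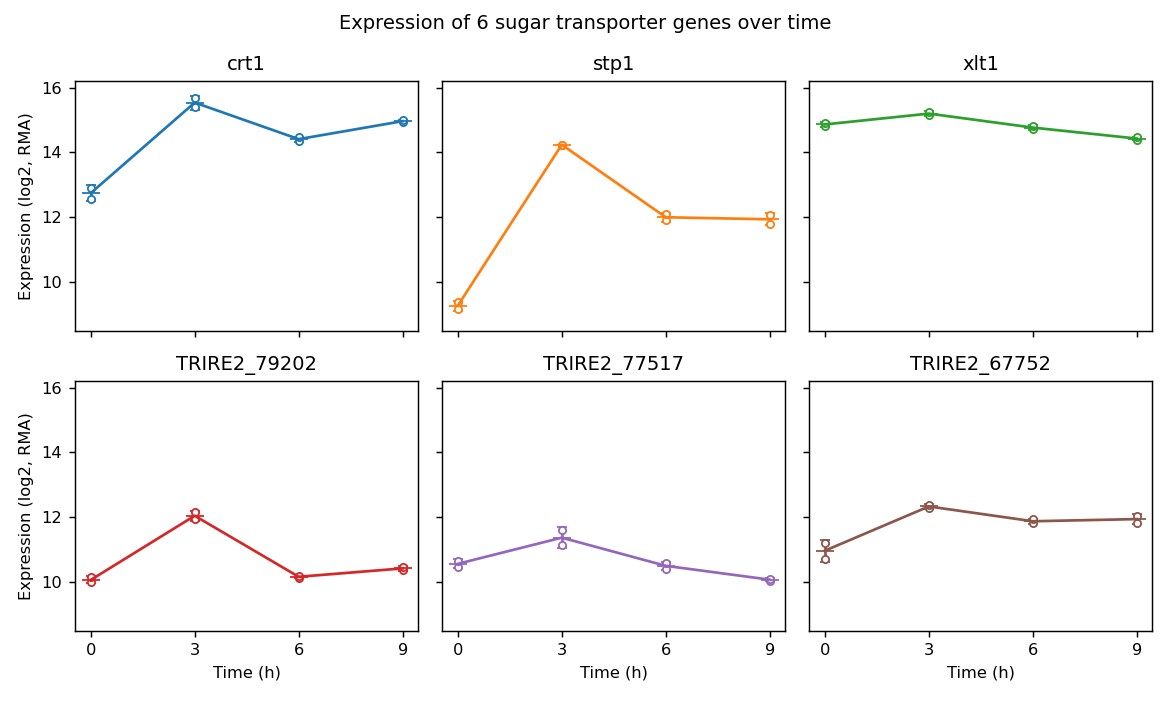
Expression of the 6 transporter genes (log2 after RMA, vertical axis) against time in h, with the mean and SD of 2 replicas per time and the replicas as open circles. The level of stp1 goes from 9.27 to 14.24 between 0 and 3 h, and xlt1 stays between 14.43 and 15.2.

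Set against mycelium at 6 h, 2 of the 6 genes, crt1 and stp1, were higher and none was lower, beside 6.68% and 4.27% of all features. The median change of the 6 was 0.50. The same genes, crt1 and stp1, were higher at 9 h, when 7.48% of all features rose and 5.4% fell, with a median of 0.67. By adjusted p alone, 3 of the 6 were higher at 6 h, as were 20% of all features, and at 9 h 4 were higher and 2, xlt1 and TRIRE2_77517, lower, beside 22.7% and 25.1% of all features at 9 h. Over all times, 4 of the 6 genes passed limma's F test and also differed from mycelium by 2-fold or more at some time, a rule that 18.9% of all features met. The F test's adjusted p of the 6 genes lay between 5.52e-07 for stp1 and 0.00208 for xlt1. In the authors' deposited table the p-value over the 4 times lay between 0.0014 for stp1 and 0.0315 for TRIRE2_77517.

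**Figure D2:**
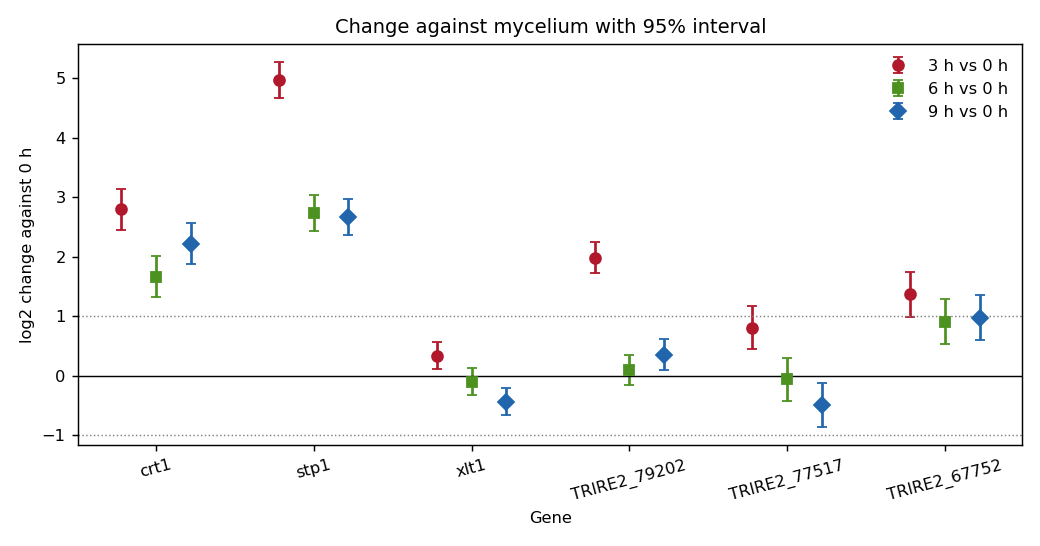
Change against 0 h (log2, vertical axis) of each transporter gene at 3, 6 and 9 h, with 95% intervals from limma's fit; dotted lines mark 2-fold. The 3 h value is the highest for each gene, from 0.33 for xlt1 to 4.96 for stp1.

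The 6 genes shared their time of highest expression. Each had its highest mean at 3 h, as did 18.9% of all features. In each, both 3 h replicas lay above all replicas of the other times, which held for 9.7% of all features. This pattern was looked for after the values had been seen. The comparisons with 0 h share the mycelium arrays and those with 3 h share the 3 h arrays, so the changes of a gene in them are not independent.

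The comparison of 6 h with 3 h asks whether the transporter genes stayed at their early level. All 6 had a lower mean at 6 h and 3 fell, where 2.62% of all features fell and 2.38% rose. The gene stp1 fell by 2.24 log2 units (95% interval -2.54 to -1.94, adjusted p = 3.28e-05), or 4.72-fold. TRIRE2_79202 fell by 1.88 log2 units (95% interval -2.14 to -1.62, adjusted p = 3.58e-05), or 3.68-fold. The level of crt1 fell by 1.13 log2 units (adjusted p = 0.00157). With the higher 3 h replica of crt1 left out, the change was -0.98 (adjusted p = 0.00842), which is short of 2-fold. TRIRE2_77517 changed by -0.87 (adjusted p = 0.00708) and xlt1 by -0.43 (adjusted p = 0.019), both under 2-fold, and TRIRE2_67752 by -0.46 (adjusted p = 0.087). No gene of the 6 had overlapping replicas at 3 and 6 h, all being lower at 6 h, as were 27.3% of all features.

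Between 6 and 9 h none of the 6 genes rose or fell, where 1.12% of all features rose and 0.811% fell. By adjusted p alone crt1 was higher at 9 h than at 6 h, by 0.56 on the log2 scale (95% interval 0.22 to 0.90, adjusted p = 0.0454), and 5.33% of all features were higher by that rule. The change of stp1 was -0.06 (95% interval -0.36 to 0.24, adjusted p = 0.777) and its replicas overlapped. TRIRE2_67752 overlapped as well, at 0.07. The changes of xlt1, TRIRE2_79202 and TRIRE2_77517 were -0.34, 0.26 and -0.43, with adjusted p of 0.0603, 0.153 and 0.107.

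The comparison of 9 h with 3 h tests directly whether the change against mycelium differed between the first and the last sampled time. It did so for 3 genes, all lower at 9 h, beside 3.5% of all features that fell and 3.02% that rose. These were stp1 at -2.3 (adjusted p = 1.73e-05), TRIRE2_79202 at -1.62 (adjusted p = 4.43e-05) and TRIRE2_77517 at -1.3 (adjusted p = 7.44e-04). The change of xlt1 was -0.77 (adjusted p = 9.99e-04) and that of crt1 -0.57 (adjusted p = 0.0236), both under 2-fold. For TRIRE2_67752 it was -0.39 (95% interval -0.77 to -0.01, adjusted p = 0.122).

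The share of the 3 h change that was still measured later varied among the genes. On the log2 scale, crt1 held 59.6% of it at 6 h and 79.5% at 9 h. For stp1 these shares were 54.9% and 53.7%, and for TRIRE2_67752 66.5% and 71.4%. TRIRE2_79202 held 4.95% and 18.0%. The mean levels of xlt1 and TRIRE2_77517 were below mycelium at both later times. At 6 h the changes against mycelium were only -0.1 and -0.06, and the replicas of both genes overlapped with those of mycelium. Differences between genes in these shares were not tested.

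**Figure D3:**
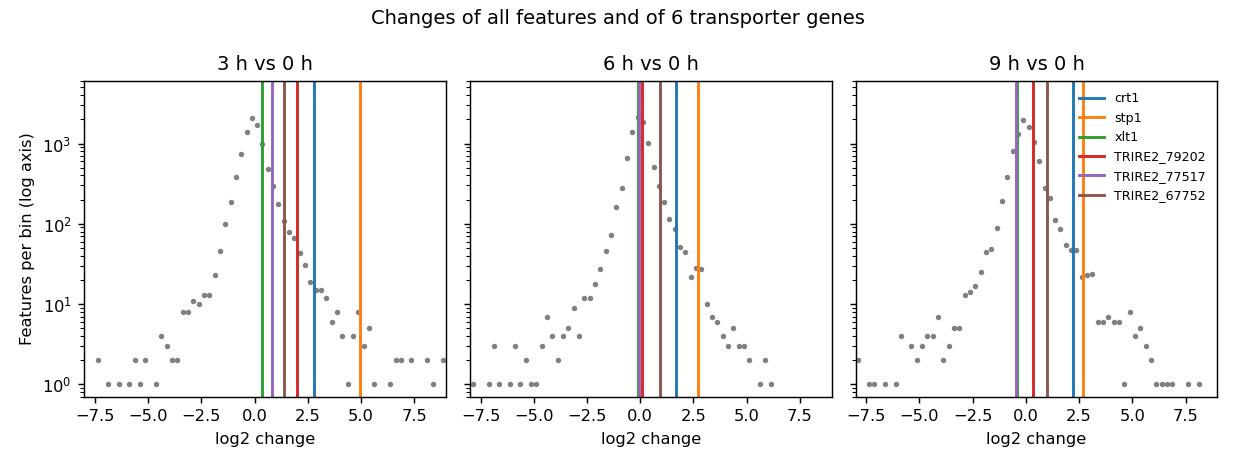
Number of features per bin of log2 change against 0 h (grey points, logarithmic vertical axis, bins of 0.25 log2 units) at 3, 6 and 9 h, with the 6 transporter genes as coloured lines. At 3 h all 6 lines lie above 0, and at 9 h those of xlt1 and TRIRE2_77517 lie below it, at -0.44 and -0.49.

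Profiles most like each transporter gene were found by the root mean square (RMS) difference between mean-centred log2 profiles over the 4 times, among 5226 other features that passed the F test, 131 of them with a symbol. For crt1 the nearest genes with a symbol were cel1a, an intracellular beta-glucosidase gene, at 0.336 log2 units, hfb2 at 0.426 and the gene with the symbol phr1 at 0.474. They held places 29, 67 and 99 among all features compared. The levels of cel1a at the 4 times were 12.35 ± 0.637, 14.66 ± 0.0416, 13.66 ± 0.0742 and 13.63 ± 0.0305. For stp1 the nearest with a symbol were cel61a, which encodes a lytic polysaccharide monooxygenase, at 0.451, the mannanase gene man5a at 0.62 and the endoglucanase gene cel7b at 0.652. Their places among all features compared were 9, 22 and 25. Few features came close to stp1, as 10 lay within 0.5 log2 units. Within that distance there were 127 features for crt1, 170 for TRIRE2_79202, 1523 for TRIRE2_77517, 1752 for TRIRE2_67752 and 3407 for xlt1. A flat profile has many neighbours by this measure, so the distances of xlt1 say little. Those of TRIRE2_77517 and TRIRE2_67752 are limited as well, with 29.1% and 33.5% of the features compared within 0.5 log2 units. The genes named as nearest to these 2 are therefore not particular to them.

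Among genes with a symbol, those nearest to TRIRE2_79202 were chi18-8, a chitinase gene, at 0.253, the beta-glucosidase gene cel3c at 0.262 and cel1b at 0.295, at places 12, 14 and 24 among all features compared. Levels of chi18-8 at 0, 6 and 9 h, 4.56, 4.41 and 4.28, lay within the range of 4.0 to 5.53 of 3 features for mating-type genes taken to be absent from this strain, and its profile rests on background values. With the same limit to symbols, TRIRE2_77517 had nag1, xdh1 and xyl1 nearest, at 0.187, 0.202 and 0.209, which were places 55, 68 and 79 among all features compared. The last 2 encode xylitol dehydrogenase and D-xylose reductase. The genes with a symbol nearest to TRIRE2_67752 were chi18-rel1 at 0.117, xyr1, which encodes the central activator of these enzyme genes, at 0.117 and chit18-11 at 0.118, at places 32, 33 and 34. For xlt1 they were ino1 at 0.0956, fld1 at 0.1 and nag1 at 0.116, at places 47, 56 and 73. Features without a symbol lay closer in each case, from 0.017 for the one nearest to xlt1 to 0.132 for that nearest to TRIRE2_79202. Among the 6 genes themselves, the closest pair was xlt1 and TRIRE2_77517, at 0.209, and the most distant was stp1 and xlt1, at 1.67. Both pairs hold xlt1, whose flat profile lay within 0.5 log2 units of 65.2% of the features compared.

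**Figure D4:**
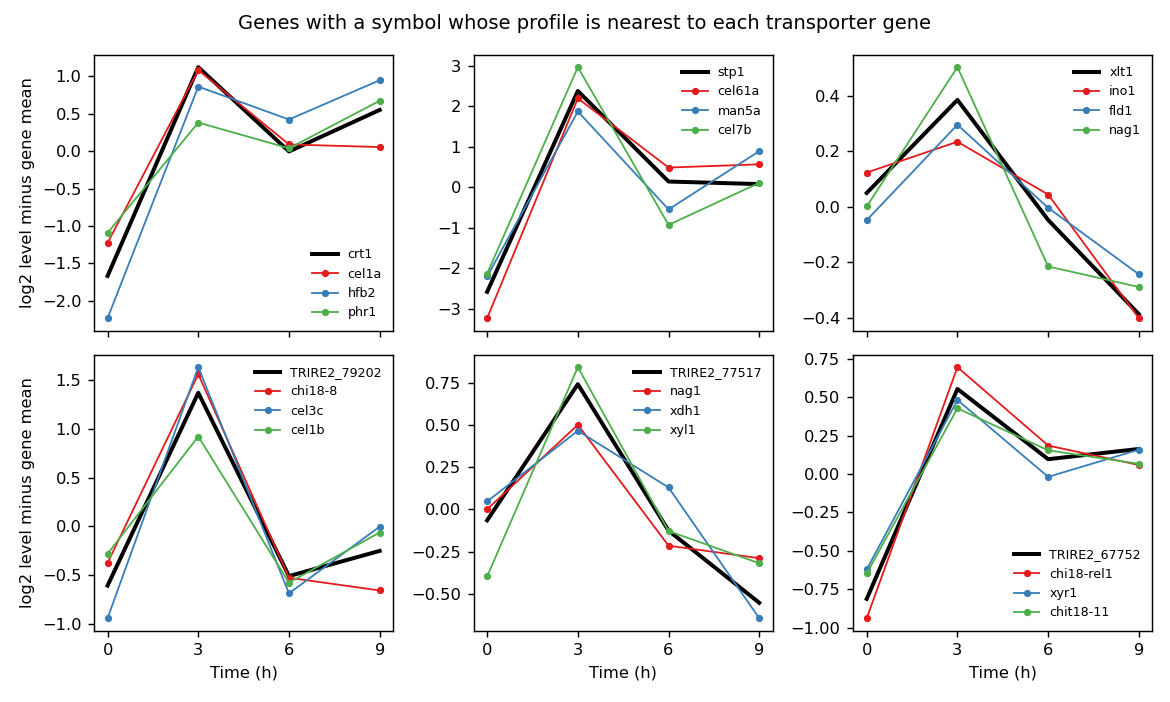
Mean log2 level minus the gene's own mean over the 4 times (vertical axis) against time in h, for each transporter gene (black) and its 3 nearest genes with a symbol. The vertical scale differs between panels; RMS differences run from 0.0956 (ino1, for xlt1) to 0.652 (cel7b, for stp1).

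Genes around sugar uptake and use formed a list of 19 symbols, of which 14 were found in the gene table. At 3 h 5 of the 14 rose and none fell, with a median change of 0.42. These were cel1a at 2.31, cel1b, the other intracellular beta-glucosidase gene, at 1.2, lxr1 at 1.37, xyl1 at 1.24 and xyr1 at 1.1. The list was chosen with earlier results of these data known, so its count supports nothing by itself. The genes of galactose use, gal1, gal7 and gal10, changed at 3 h by 0.46, -0.0029 and 0.18, with adjusted p of 0.0547, 0.988 and 0.489. The hexokinase gene hxk1 changed by -0.41 (adjusted p = 0.0474) and stayed under 2-fold. At 6 h and at 9 h 2 of the 14 were higher, cel1a and lxr1, and the list medians were 0.11 and -0.03. The gene lxr1 is also one of the genes used above as a check of sporulation. Its rise is therefore not a separate result of sugar use.

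The genes of D-xylose use inside the cell can be set beside the D-xylose transporter gene. The changes of xlt1 against mycelium stayed under 2-fold, and xyl1 went from 13.65 ± 0.139 at 0 h to 14.89 ± 0.0679 at 3 h (adjusted p = 5.37e-05) and back to 13.73 ± 0.0265 at 9 h. The level of xdh1 was 10.5 ± 0.257 at 0 h, 10.92 ± 0.33 at 3 h and 9.81 ± 0.116 at 9 h. Its change from 0 to 3 h, 0.42 (adjusted p = 0.0989), did not pass the thresholds. From 3 to 9 h xdh1 changed by -1.11 (adjusted p = 0.00333). The difference between these genes was not tested. The hexose transporter gene hxt1, the only other transporter of sugars with a symbol that was picked out of the gene table, changed by 0.36 at 3 h (adjusted p = 0.0289), 0.24 at 6 h and 0.23 at 9 h, each under 2-fold, from 14.74 ± 0.164 in mycelium.

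Genes of secreted proteins of cellulose and hemicellulose breakdown, not all of which release sugars themselves, were given as a list of 25 symbols, of which 15 were found. At 3 h 12 of the 15 rose, with a median of 5.1, beside 6.77% of all features and a median of -0.05. The largest rises were cip2 at 8.95, axe1 at 8.34, cip1 at 8.21, cel5a at 8.07 and cel61b at 7.46. Between 3 and 6 h the same number, 12 of 15, fell, with a median of -3.1, where 2.62% of all features fell. Between 6 and 9 h 5 rose and none fell, where 1.12% of all features rose. Since cip2 was at 5.04 ± 0.0191 in mycelium, within the background range, the size of its rise is not exact.

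The place of the transporter genes among their neighbours was read from the order of the RefSeq gene table, taking the 2 genes before and the 2 after each. All 24 neighbours were on the array. At 3 h 11 of the 24, or 45.8%, rose and 1 fell, where 6.77% and 4.8% of all features did. At 6 h 6 rose and 1 fell, and at 9 h 9 rose and 3 fell. The median change of the neighbours was 0.51 at 3 h. Of the 12 genes directly beside a transporter gene, 8 rose at 3 h. These counts are a description, with no test, and 4 neighbours of a gene are taken to share its locus. The gene table names no scaffolds, so a shared scaffold was assumed from rising start positions.

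Both genes beside crt1 rose at 3 h. TRIRE2_106164, before it, went from 6.92 ± 0.546 to 12.35 ± 0.206, a change of 5.43 (adjusted p = 2.18e-06), and stood 2.94 above mycelium at 9 h. TRIRE2_26163, after it, rose by 1.38 at 3 h (adjusted p = 5.99e-04) and was at -0.81 and -0.02 at 6 and 9 h. The next gene, TRIRE2_59364, rose by 3.86 at 3 h, changed by 0.91 at 6 h, under 2-fold, and stood 2.49 above mycelium at 9 h. The gene at the far side, TRIRE2_47069, changed by 0.42 (adjusted p = 0.058).

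Beside stp1, both adjacent genes rose as well. TRIRE2_69944 went from 8.05 ± 0.305 at 0 h to 13.07 ± 0.101 at 3 h, a change of 5.02 (adjusted p = 2.52e-07), and to 10.1 and 10.21 at 6 and 9 h. TRIRE2_112022 rose by 2.67 at 3 h, 2.3 at 6 h and 2.6 at 9 h. Near xlt1, which itself stayed under 2-fold, TRIRE2_56684, the gene next but one before it, went from 6.48 ± 0.0406 to 11.43 ± 0.0653 at 3 h, a change of 4.95 (adjusted p = 3.59e-08). It was at 2.08 and 1.33 at 6 and 9 h. TRIRE2_104073, directly after xlt1, rose by 1.47 at 3 h and 1.27 at 6 h, and by 1.0 at 9 h, at the threshold, while TRIRE2_2499 fell by 1.39 at 9 h.

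TRIRE2_77517 lay directly after cel1b, which rose by 1.2 at 3 h (adjusted p = 1.38e-04) and was at -0.3 and 0.22 at 6 and 9 h. The gene before cel1b, TRIRE2_77513, rose by 1.4 at 3 h (adjusted p = 4.38e-05). Both neighbours of TRIRE2_79202 rose at 3 h, TRIRE2_63981 by 1.52 and TRIRE2_108663 by 1.6. At 9 h they were 1.65 and 2.1 above mycelium, when TRIRE2_79202 itself was at 0.36, and TRIRE2_4484 was at -1.51. Of the neighbours of TRIRE2_67752 none rose at 3 h, TRIRE2_67658 fell at all 3 times, with log2 changes of -1.08, -1.22 and -1.18, and TRIRE2_110843 rose by 1.04 at 9 h.

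**Figure D5:**
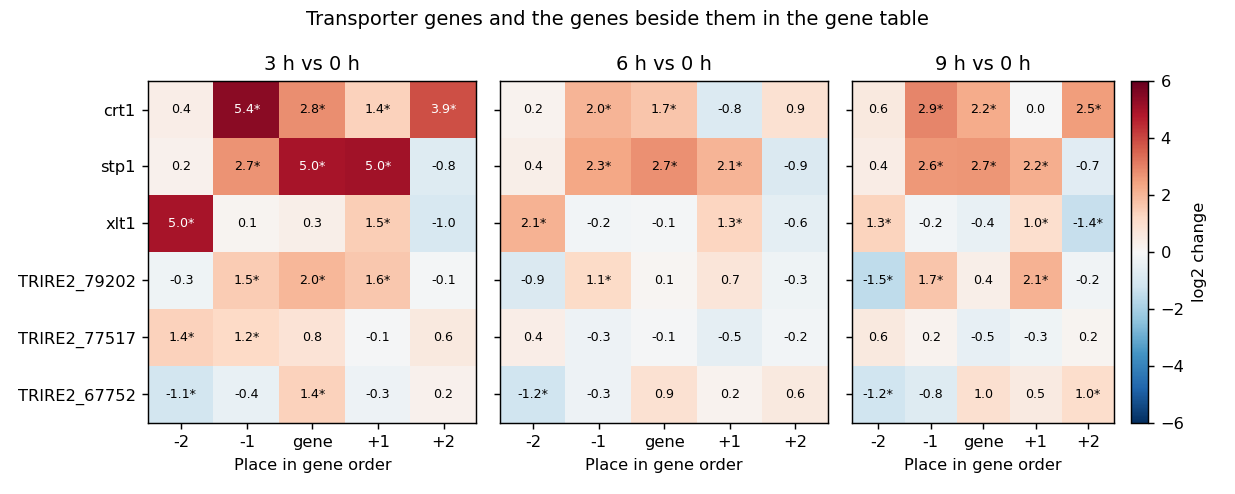
log2 change against 0 h at 3, 6 and 9 h of each transporter gene (middle column of a panel) and of the 2 genes before and after it in the gene table; an asterisk marks an adjusted p under 0.05 with a change of at least 2-fold. At 3 h TRIRE2_106164 beside crt1, TRIRE2_69944 beside stp1 and TRIRE2_56684 near xlt1 stand out, at 5.43, 5.02 and 4.95.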

How the data were processed

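Per the labels' protocols, Cy3-labelled total RNA was put on a NimbleGen gene array read in 1 colour. The deposited table gives, per the file headers, a mean log2 value and its SD for each time and 1 p-value per feature, and RMA was used per the submitters' processing notes. Since RMA gives all arrays the same distribution, it hides any change in the amount of RNA per cell. The version of RMA and the genome build are not given in the sources used here. A one-way analysis of variance for 2 replicas with Benjamini-Hochberg adjustment gave the deposited p-value within 1% for 9015 of 9126 features, or 98.78%, against 14 for 3 replicas, so the SD was taken as that of 2 replicas. A second deposited table held the same means.

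The limma moderated test (limma 3.58.1, R 4.3.3, prior degrees of freedom 3.82) was computed from the means and SDs with 4 residual degrees of freedom, all 4 times in 1 fit. In simulated data for 3 h against 0 h, with 9126 features, 98 of 100 features with a true log2 change of 2 and 41 of 100 with a true change of 1 passed both thresholds, with 2 false calls. A true change of 1 lies at the fold threshold itself, and by adjusted p alone 82 of those 100 passed. All other simulated features had no true change, and the noise was normal and independent between features. In the measured data 618 features rose and 438 fell at 3 h, which moves the cut-off of the adjustment. The simulated shares and false calls therefore need not hold for the measured data. Gene names came from the RefSeq table of the QM6a assembly v2.0, in which 9094 of 9122 identifiers were found and 235 had a symbol. The names crt1, stp1 and xlt1 are those in use for these identifiers and are not in that table. Genes were named by rule: all members, 3 nearest profiles each, listed genes and neighbours that passed the thresholds, and the 5 largest changes of the secreted proteins. The gene hxt1 and the neighbours named with other values fall outside it. The members and lists were chosen with earlier results of these data known. A list of relatives by protein similarity was planned and is not used here, since no protein sequences were at hand.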

Additional observations from a re-analysis of the deposited data

Results flagged for a closer look

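The change against mycelium differed between sampled times for 4 of the 6 genes, by the direct test between those times, with a change of at least 2-fold. Between 3 and 9 h it moved by -2.3 for stp1, -1.62 for TRIRE2_79202 and -1.3 for TRIRE2_77517 on the log2 scale. Between 3 and 6 h it moved by -2.24 for stp1, -1.88 for TRIRE2_79202 and -1.13 for crt1. By the same rule 3.5% of all features fell from 3 to 9 h and 2.62% from 3 to 6 h. The call of crt1 is lost with its higher 3 h replica left out, at -0.98. Both steps share the 3 h arrays.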

How the results depend on the processing

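No call of the 6 genes changed with quantile normalization, median centring, a trended prior or a fit of only the 2 times compared. Leaving out features of low mean level changed none either. Quantile normalization and median centring were applied to the means of values already normalized by RMA, with the SDs kept. The medians of these means lay between 11.53 and 11.56, so both settings had little room to change a call. The authors' p-value is 1 value over the 4 times and was under 0.05 for all 6 genes. With it the fold threshold alone decided each call, so it could not test single comparisons. At 4-fold, 2 genes were higher at 3 h, 1 at 6 h and 2 at any time, where 2.05% of all features were higher at 3 h and 1.85% at 6 h, and 1 was lower from 3 to 6 h and 1 from 3 to 9 h. At 1.5-fold, 5 genes were higher at 3 h, 3 at 6 h and 3 at 9 h, and 4 were lower in the steps from 3 to 6 h and from 3 to 9 h. With no fold threshold, 4 genes were higher and 2 were lower at 9 h, beside 22.7% and 25.1% of all features. From 6 to 9 h 1 was higher, beside 5.33%. All 6 were higher at 3 h, 5 were lower from 3 to 6 h and 5 from 3 to 9 h. For these last 3 counts, those at 1.5-fold, and the falls and any-time count at 4-fold, the share of all features is not given here. They cannot be read against all features. Replicas are not numbered across features, so 1 replica was left out by keeping, in every feature, the one nearer to the other time, with the lone replica assumed to vary like the other groups. Then crt1 changed by -0.98 from 3 to 6 h and ended short of 2-fold, and no other call was lost. Changes that were not called and turned sign were those of TRIRE2_77517 at 6 h (0.0233 to 0.039), stp1 from 6 to 9 h (0.0346 to 0.0667) and TRIRE2_67752 from 6 to 9 h (-0.0396 to 0.01). No paired analysis was possible because the deposited columns are means of replicas with no numbers. No setting was tried for the list of relatives by protein similarity, which could not be made. With 2 arrays per time, a change had a standard error of 0.123 log2 units in the median feature.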

Other observations

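Over all features that passed the F test, the profile nearest to stp1 was that of TRIRE2_56840, at an RMS difference of 0.0507 log2 units over the 4 times. From 8.24 ± 0.205 in mycelium it went to 13.16 ± 0.125 at 3 h, 10.85 ± 0.102 at 6 h and 10.78 ± 0.112 at 9 h, with a change of 4.93 at 3 h (adjusted p = 1.67e-07). In the gene table TRIRE2_56840 stands 3 places before xlt1, next to TRIRE2_56684, which changed by 4.95 at 3 h, while xlt1 changed by 0.33. This gene was picked out after the values had been seen.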
